A study of Mus musculus with 6 samples.

Results

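Cholangiocytes, the epithelial cells that line the bile ducts, were examined among the non-parenchymal liver cells of mice with nonalcoholic steatohepatitis (NASH). A cell was taken as a cholangiocyte when it held at least 3 UMIs in total of Epcam, Krt19 and Krt7 and at least 2 UMIs in total of Krt8 and Krt18, where a UMI (unique molecular identifier) stands for a single counted transcript. The rule was applied to cells with under 5000 detected genes and under 5% mitochondrial UMIs, and it found 562 cholangiocytes among 27544 such cells. Male C57BL/6J mice aged 8 weeks received a high-fat diet (HFD) for 24 weeks, and in the last 8 weeks they were given by gavage either DMSO (vehicle) or ginkgetin, a biflavone of Ginkgo biloba leaves, at 10 mg/kg/day. There were 3 droplet single-cell RNA-Seq libraries per group, both groups were fed the HFD, and no chow-fed library entered the comparison. The sources do not say whether a library came from a single mouse or from pooled mice, so p-values measure the spread between libraries only.

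The libraries fell into 2 sets. Replicate 3 of both groups used other cell barcodes and partly other gene symbols than replicates 1 and 2, and 16150 of 19349 genes were seen in both sets. Replicate 3 was also deeper, with medians of 12568.5 UMIs per cholangiocyte in the vehicle and 12882.5 in the ginkgetin library, against 5670 to 8699 in the other libraries. The limits on genes and on mitochondrial UMIs together left out 69 and 96 further cells of these 2 libraries that met the gate, and 15 to 33 in each other library. Libraries of 1 set shared up to 85 barcodes, and 9 barcodes of cholangiocytes also occurred in another library, where none of them was a cholangiocyte. Values without replicate 3, or with a term for the set or the replicate number (a block), are therefore given beside many of the results they change.

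Cholangiocytes modify the bile that hepatocytes release. They secrete bicarbonate and water through channels and exchangers such as CFTR and the anion exchanger SLC4A2, take up bile acids through the apical transporter ASBT, sense flow with a primary cilium and carry secretory IgA into bile with the polymeric immunoglobulin receptor. In chronic liver injury they can take on a reactive state with chemokines, adhesion molecules and matrix enzymes, and ductules may expand. Like other cells they make cholesterol from acetyl-CoA through the mevalonate pathway. The transcription factor SREBP2, encoded by Srebf2, turns on the enzymes of that pathway when sterols in the endoplasmic reticulum are low, and INSIG1 holds it back when they are high.

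The label was checked against Sox9, a biliary transcription factor that the gate did not use. Its level, as counts per 1000000 UMIs summed over the cholangiocytes of a library (CPM), was 510, 510 and 431 in the vehicle and 561, 550 and 571 in the ginkgetin libraries, against means of 0.782 and 1.89 in all other cells. Between 83.5% and 93.1% of the cholangiocytes of a library held a UMI of Sox9, against at most 0.549% of lymphocytes in any library. The 15 genes with the largest ratio to the other cells included Pkhd1, the gene of a ciliary protein, the junction genes Cldn7 and Dsg2, the keratin Krt23, the tetraspanin Tspan8 and the glucose carrier Slc5a1. These ratios follow from how the cells were chosen and were not tested. Most of the cells also held UMIs of markers of other cells. These were markers of macrophages, endothelial cells, lymphocytes, stellate cells or fibroblasts and mesothelium. Fewer than 3 UMIs of them in total were held by 6, 6 and 7 gated cells of the vehicle libraries. In the ginkgetin libraries the numbers were 16, 1 and 2. In each library between 1 and 9 gated cells held at least 3 UMIs of the mesothelial genes Msln, Upk3b, Upk1b, Wt1 and Lrrn4, and nearly all of them had no Epcam.

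Hepatocyte genes were uneven in these cells. Of 20 hepatocyte markers, 6 had a higher mean in the cholangiocytes than in the other cells of both groups (Ahsg, Alb, Apoc1, Serpina1c, Trf and Ttr), and 14 had a lower one. Alb, the gene of albumin, stood at 8275, 8102 and 3264 CPM in the vehicle and 6362, 6379 and 4016 CPM in the ginkgetin libraries, against 317 and 128 CPM in the other cells. Ttr, transthyretin, was at means of 2039 and 1961 CPM, against 252 and 59.5 CPM in the other cells. On the other side, Fabp1 was at 71.3 to 147 CPM in the vehicle and 9.59 to 82.2 CPM in the ginkgetin libraries, below its level of 757 and 178 CPM in the other cells. Between the groups 11 of the 15 markers tested had a negative fold change. None was among the 58 called genes described below. Of the 15, 5 had an unadjusted edgeR p under 0.05 (against 13.2% of all genes tested). DESeq2 called 1 (against 80 of 8052 genes tested). Fgb and Serpina1c were called lower under either block, and Fabp1 with the replicate number only.

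The first comparison asked whether the share of cholangiocytes differed between the groups. They made up 2.21%, 3.33% and 1.40% of the cells of the vehicle libraries (133, 111 and 58 cells) and 2.26%, 1.78% and 1.59% of the ginkgetin libraries (79, 123 and 58 cells). The groups overlapped, and the vehicle libraries held both the highest and the lowest share. The means were 2.31% ± 0.967 and 1.88% ± 0.346 (SD, n = 3), a difference of -0.436 points with a two-sided exact permutation p of 0.7, where 3 libraries against 3 cannot go below 0.10. Within replicates 1 and 2 the difference was -0.749 points, and in replicate 3 it was 0.190 points. Without vehicle replicate 2 it was 0.0711 points, so its direction rested on that library. Shares are also set by how many cells of other kinds were captured, and cells with macrophage markers numbered 883 to 1559 in the vehicle and 132 to 524 in the ginkgetin libraries.

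**Figure D1:**
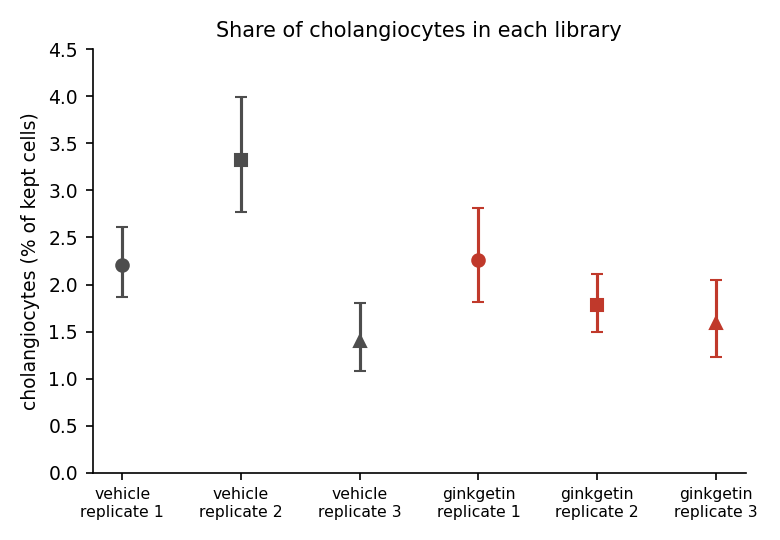
Cholangiocytes as a percentage of the kept cells (y axis) in each of the 6 libraries (x axis), with 95% Wilson intervals that cover counting error only. The 3 ginkgetin libraries sit between 1.59% and 2.26%, within the range of the vehicle libraries, 1.40% to 3.33%.

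The 5 gate genes were themselves lower in the ginkgetin libraries, which is given as a description because they chose the cells. Epcam, an epithelial adhesion molecule, was at 1264, 1100 and 1546 CPM against 856, 945 and 867 CPM, and Krt8, a keratin of simple epithelia, was at 2138, 1857 and 3001 CPM against 1097, 1044 and 1255 CPM. Krt7 overlapped between the groups and the other 4 did not. From 0 to 7 cells of a library had exactly 3 UMIs of the first 3 genes, and from 0 to 7 met the rest of the gate but had 2. At most 1 cell of a library had exactly 2 UMIs of Krt8 and Krt18, and from 1 to 9 met the rest of the gate but had 1, with the 9 in vehicle replicate 3.

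The second comparison asked which genes differed between the cholangiocytes of ginkgetin-treated and vehicle-treated mice. UMIs were summed per library and tested with edgeR's quasi-likelihood test, and a gene was called when its p, adjusted over all genes tested (Benjamini-Hochberg), was under 0.05 and its fold over 2. Of 8052 genes tested, 58 were called, a background of 0.72%. There were 38 genes that rose (0.472%) and 20 that fell (0.248%). Every called gene had the same direction in replicate 3 as in the whole fit, and 27 of the 38 and 14 of the 20 were also called in replicates 1 and 2 alone, where 83 of 8333 genes were called (0.996%, of which 0.672% rose and 0.324% fell). Elovl6, Sc5d, Hspa1b, Vegfa, Ces1c, Hp and Sprr1a, named below, were not called in replicates 1 and 2 alone (edgeR adjusted p = 0.0565 to 0.102). A block for the replicate number gave 178 calls (2.21%, with 1.28% higher) and one for the barcode set gave 164 (2.04%, with 1.18% higher), and both included all 58. Without 1 library the count was 19 (vehicle replicate 1), 24 (vehicle replicate 2), 42 (vehicle replicate 3), 13 (ginkgetin replicate 1), 22 (ginkgetin replicate 2) or 34 (ginkgetin replicate 3). These held 18, 20, 29, 13, 19 and 27 of the 58, and Hmgcs1, Idi1, Fdft1, Sqle, Lss, Cyp51, Msmo1, Dhcr7, Insig1, Mmp7 and Gc were called in every alternative that tested them.

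Markers of other cells moved with the treatment and are given before the genes. Macrophage markers (14 genes) summed to 245 to 604 CPM in the vehicle and 95.9 to 383 CPM in the ginkgetin cholangiocytes, and 7 of the 8 tested had a negative fold change, with C1qb and Lyz2 called lower under either block. Endothelial markers (12 genes) summed to 88.1 to 148 CPM in the vehicle and 218 to 696 CPM in the ginkgetin cholangiocytes, and Egfl7 among them was called as higher, as were Kdr and Dnase1l3 under either block. In the other cells the macrophage and endothelial lists stood at means of 13307 and 4027 CPM, and among the defining markers Adgre1 and Stab2 were at 0 to 3.54 and 1.56 to 62.5 CPM in cholangiocytes. The median mitochondrial share was 2.37%, 2.70% and 4.06% in the vehicle and 3.75%, 3.93% and 4.46% in the ginkgetin cholangiocytes. Most hepatocyte markers had negative fold changes too, as given above. The part of these in the results below was not tested. For some genes the level in the other cells is given beside the result.

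The largest group of genes that rose were the enzymes of cholesterol synthesis. Of 20 enzymes from acetoacetyl-CoA to cholesterol, all 20 were tested and 15 rose, against the background of 0.472% of all genes. All 20 had a positive fold change (against 51.8% of all genes tested), in 18 the libraries of the groups did not overlap (against 19.4% of all genes tested), and their median log2 fold change was 2.19, against 0.02 over all genes tested. The list was drawn up after these values had been seen, so its count is a description. Of the 38 genes that rose, 19 were cholesterol enzymes or genes of sterol control and uptake. Under either block 17 enzymes were called.

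The early steps build the isoprenoid units. Hmgcs1, HMG-CoA synthase, stood at 36.7, 51.9 and 55.6 CPM in the vehicle libraries and at 308, 310 and 589 CPM in the ginkgetin libraries. Every ginkgetin library lay above every vehicle library, and the level was 8.42-fold higher (log2 3.07 ± 0.307 SE, edgeR adjusted p = 0.000875). Idi1, which isomerises isopentenyl diphosphate, stood at 27.3, 38.9 and 34.2 CPM against 207, 212 and 286 CPM. It had the lowest adjusted p of the pathway (log2 2.83 ± 0.248 SE, edgeR adjusted p = 0.000658). Fdps, which makes farnesyl diphosphate, rose 5.38-fold from a mean of 70.9 ± 29.8 to 372 ± 26.5 CPM (SD, n = 3, edgeR adjusted p = 0.00496), and was not called without ginkgetin replicate 1 (edgeR adjusted p = 0.054). Mvd, mevalonate diphosphate decarboxylase, also rose (not without vehicle replicate 1 or 2 or ginkgetin replicate 1 or 2), while Acat2, Mvk and Pmvk were not called, with log2 fold changes of 0.94, 1.25 and 1.14. Mvk and Pmvk were called with the replicate number as a block, with edgeR adjusted p of 0.0327 and 0.00753.

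The later steps turn farnesyl diphosphate into sterols. Fdft1, squalene synthase, stood at 53.0, 38.9 and 41.3 CPM in the vehicle and 221, 204 and 189 CPM in the ginkgetin libraries (edgeR adjusted p = 0.00151). Sqle, squalene epoxidase, rose 3.96-fold (edgeR adjusted p = 0.00313). Lss, lanosterol synthase, rose 9.41-fold, the largest change of the enzymes, from 5.46, 7.07 and 7.13 CPM to 53.1, 55.9 and 74.0 CPM (log2 3.23 ± 0.312 SE, edgeR adjusted p = 0.000793). These are genes of adjoining steps, and their libraries were separated without overlap. Cyp51, Msmo1, Nsdhl, Hsd17b7 and Sc5d, which convert lanosterol, rose by log2 1.41 to 2.48. Sc5d lost its call in every fit that left out 1 library, Nsdhl in all of these but that without ginkgetin replicate 3, and Hsd17b7 in all but that without vehicle replicate 3. Dhcr7, a reductase at the end of the pathway, rose 5.87-fold. Ebp was the exception, at 78.5 ± 9.01 against 81.2 ± 18.1 CPM (SD, n = 3) with a log2 fold change of 0.08, and Tm7sf2 was not called, with overlapping libraries.

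**Figure D2:**
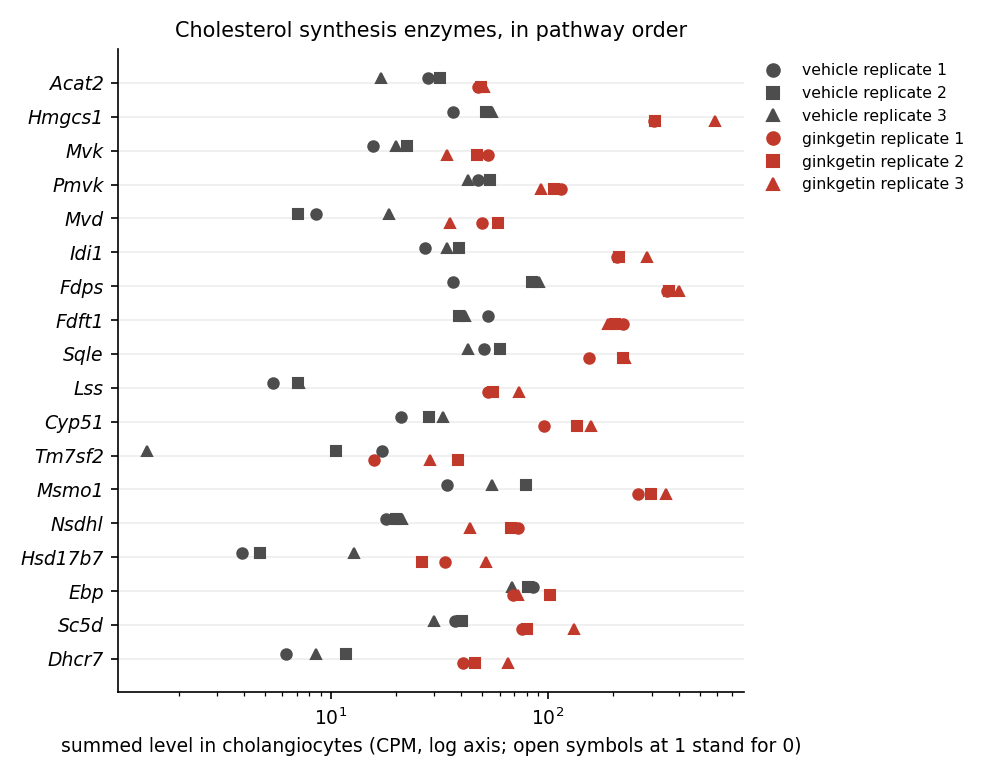
Level of 18 of the cholesterol synthesis enzymes in the cholangiocytes of each library, in CPM on a log axis, ordered along the pathway from acetoacetyl-CoA thiolase (Acat2), with symbols for the replicates. In 16 of these enzymes the 3 ginkgetin libraries (red) lie above the 3 vehicle libraries (grey), and Ebp and Tm7sf2 overlap.

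The number of enzymes called varied with the libraries in the fit. It was 9, 9 and 13 without vehicle replicates 1, 2 and 3 and 8, 10 and 11 without ginkgetin replicates 1, 2 and 3. In replicates 1 and 2 alone it was 14, with total UMIs 12, in limma-voom 10 and after thinning each cell to at most 3000 UMIs, where 4313 genes were tested in all, 8.

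Of 12 tested genes of sterol control and uptake, 4 rose (against 0.472% of all genes) and 8 were not called, 3 of the 12 with a negative fold change. With the replicate number as a block 5 rose (against 1.28% of all genes), and with the barcode set 4 (against 1.18%). Insig1, the sterol-dependent brake on SREBP2, stood at 14, 28.3 and 18.5 CPM in the vehicle and 161, 370 and 179 CPM in the ginkgetin libraries, a 12.1-fold rise (log2 3.6 ± 0.406 SE, edgeR adjusted p = 0.00177). Srebf2 itself rose 3.04-fold, from 36.9 ± 14.3 to 109 ± 13.7 CPM (SD, n = 3, edgeR adjusted p = 0.0325), and Stard4, a sterol carrier of the cytosol, rose 3.36-fold. The groups did not overlap in any of these 3 genes. Srebf1, Insig2, Scap and both site proteases were not called, and the log2 fold changes of Srebf1 and Insig2 were -0.15 and -0.30. Srebf2 was not called without vehicle replicate 1 or 2 or without any 1 ginkgetin replicate. Stard4 kept its call only without vehicle replicate 2 among these 6 fits.

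Genes of sterol export did not share this direction. Abca1, a sterol exporter, stood at 28.1, 20.0 and 29.9 CPM in the vehicle and 5.31, 11 and 4.11 CPM in the ginkgetin libraries, without overlap. It was not called (log2 -1.82 ± 0.428 SE, edgeR adjusted p = 0.105), and was called lower with the replicate number as a block (edgeR adjusted p = 0.0369). In the other cells Abca1 was at means of 114 and 36.0 CPM, and their part in this was not tested. Apoe, which carries lipid out of cells, was at 14303 ± 1959 and 14341 ± 762 CPM (SD, n = 3).

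Fatty acid genes rose in part. Of 31 tested genes of lipid metabolism 11 rose and 1 fell, against 0.472% and 0.248% of all genes, and 8 of the 11 were sterol genes given above. The other 3 were Scd2, Acly and Elovl6. Scd2, a stearoyl-CoA desaturase, stood at 92.8, 97.8 and 95.5 CPM in the vehicle and 257, 300 and 374 CPM in the ginkgetin libraries, and the vehicle libraries were nearly alike (log2 1.71 ± 0.225 SE, edgeR adjusted p = 0.00473). Its call was lost without vehicle replicate 1 or 2 (edgeR adjusted p = 0.0649 and 0.0616). Acly, which supplies cytosolic acetyl-CoA, rose 2.37-fold, and Elovl6, a fatty acid elongase, rose 2.65-fold. Both calls were lost when any 1 library was left out, with edgeR adjusted p of 0.0546 to 0.195 for Acly and 0.0854 to 0.165 for Elovl6. The fatty acid desaturase Fads1 rose 3.51-fold, kept its call only without vehicle replicate 3 when 1 library was left out, and was named after its value was seen. Fasn, fatty acid synthase, was not called, at 30.2 ± 18.4 against 50.9 ± 30.0 CPM (SD, n = 3), and Scd1 was at 23 ± 14.8 against 15 ± 8.66 CPM. Acot1, an acyl-CoA thioesterase, fell, from 172, 178 and 148 CPM to 46.0, 25.2 and 68.5 CPM (log2 -1.85 ± 0.302 SE, edgeR adjusted p = 0.0242). Without vehicle replicate 1 or 2 or ginkgetin replicate 1 or 2 Acot1 was not called. After thinning, Acot1, Acly, Elovl6 and Fads1 were not called (edgeR adjusted p = 0.0651, 0.217, 0.289 and 0.0807).

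The sequence before the start of these genes was read from the RefSeq promoter table of build GRCm38.p6, and is shown because the genes moved together and SREBP2 is known to act with the CCAAT-binding factor NF-Y on such promoters. Of the 20 enzymes, 15 had an entry. Letters CCAAT, on either strand, were found within 250 bases before the start of 14 of these 15 genes (93.3%), against 37.5% of all 27025 genes in the table. They were in 18 of the 28 genes that rose and have an entry (64.3%) and in 10 of the 17 that fell (58.8%). Letters TCACNCCAC, the core of a sterol regulatory element, were found in 1 of the 15, Hmgcs1, and in 1.22% of all genes. A match is a description of these letters and not a site of binding. For the first 4 sequences the capitals mark CCAAT, which reads ATTGG where it lies on the other strand, and in Hmgcs1 also the sterol element, which starts 137 bases before the gene. All 4 lie on the plus strand, at chr13:119690101-119690350, chr13:8885356-8885605, chr5:28071162-28071411 and chr10:76531355-76531604.
Hmgcs1: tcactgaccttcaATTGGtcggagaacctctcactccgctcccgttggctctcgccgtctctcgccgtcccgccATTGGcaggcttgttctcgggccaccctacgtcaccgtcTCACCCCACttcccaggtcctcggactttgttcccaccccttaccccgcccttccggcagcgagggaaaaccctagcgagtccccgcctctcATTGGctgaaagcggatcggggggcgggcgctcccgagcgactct
Idi1: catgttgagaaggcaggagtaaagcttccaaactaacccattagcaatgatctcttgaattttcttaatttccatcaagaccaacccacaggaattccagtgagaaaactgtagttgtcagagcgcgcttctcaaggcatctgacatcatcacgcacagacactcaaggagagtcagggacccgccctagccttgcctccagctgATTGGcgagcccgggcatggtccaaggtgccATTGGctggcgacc
Insig1: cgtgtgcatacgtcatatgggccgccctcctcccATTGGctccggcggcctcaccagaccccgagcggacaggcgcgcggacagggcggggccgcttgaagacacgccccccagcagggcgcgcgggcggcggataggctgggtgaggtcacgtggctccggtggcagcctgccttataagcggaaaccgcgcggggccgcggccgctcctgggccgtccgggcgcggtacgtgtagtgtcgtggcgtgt
Lss: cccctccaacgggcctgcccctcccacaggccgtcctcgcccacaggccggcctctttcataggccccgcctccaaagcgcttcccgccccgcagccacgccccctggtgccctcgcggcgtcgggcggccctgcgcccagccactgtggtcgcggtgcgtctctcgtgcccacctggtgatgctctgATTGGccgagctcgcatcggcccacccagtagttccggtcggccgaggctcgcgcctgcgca

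More of the cholangiocytes held a transcript of these genes in the ginkgetin libraries. Each cell was thinned to 3000 UMIs so that depth did not differ, and 0 to 3 cholangiocytes per library were too shallow and were left out. Hmgcs1 was then found in 14.3%, 13.6% and 17.9% of the cholangiocytes of the vehicle libraries and in 46.2%, 55.0% and 79.3% of those of the ginkgetin libraries. Without thinning the shares were 26.3% to 41.4% and 73.4% to 93.1%. Fdps was found in 9.02% to 20.9% against 63.8% to 69.2%, and Insig1 in 3.57% to 10.0% against 37.2% to 58.3% of the thinned cells. The shares of the 2 groups were far apart in each of these genes. In lymphocytes thinned alike, of which 49 to 834 per library were too shallow and whose median depth was 2687 to 5417 UMIs against 5670 to 12882.5 in cholangiocytes, Hmgcs1 was found in 1.98% to 4.41% of the vehicle and 6.26% to 6.97% of the ginkgetin cells. Sox9 was found in 64.3% to 74.4% and 71.8% to 77.6% of thinned cholangiocytes, which overlap.

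**Figure D3:**
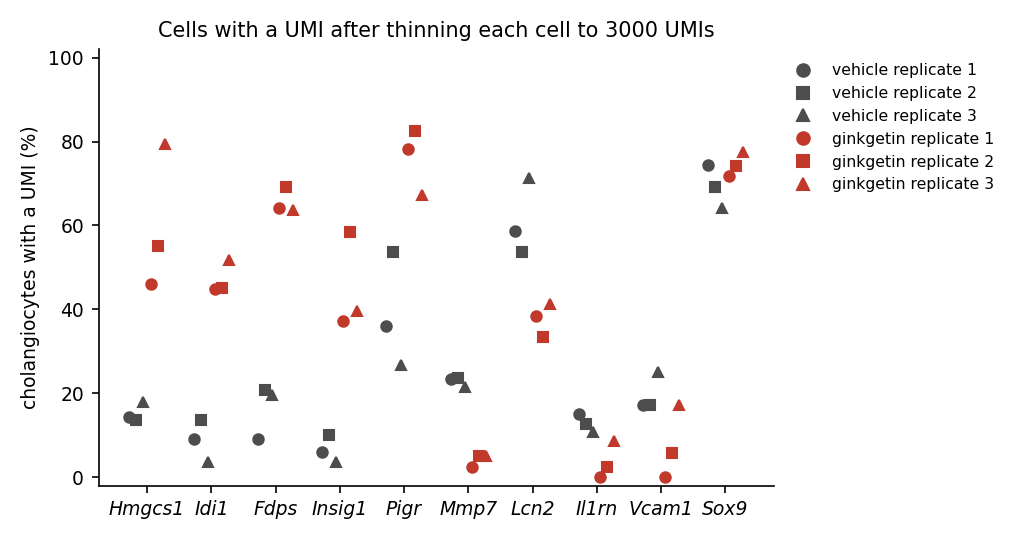
Percentage of cholangiocytes with at least 1 UMI of a gene (y axis) after each cell was thinned to 3000 UMIs, for 10 genes (x axis) and 6 libraries. Hmgcs1, Idi1, Fdps, Insig1 and Pigr are found in more cells of each ginkgetin library than of any vehicle library, Mmp7, Lcn2 and Il1rn in fewer, the groups of Vcam1 nearly meet at 17.2% and 17.3%, and those of Sox9 overlap.

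The change in the enzymes was set beside that in 3 other kinds of cells, taken by marker gates from the same libraries. These were 7811 cells with endothelial markers, 4497 with macrophage markers and 6819 with lymphocyte markers. The median log2 fold change of the 20 enzymes, 2.19 in cholangiocytes, was 0.84 in endothelial cells (from -0.25 to 1.90), 0.49 in lymphocytes (from -0.50 to 1.85) and -0.10 in macrophages (from -0.94 to 1.62). The difference between the changes of 2 kinds of cells was tested in a single edgeR quasi-likelihood fit with the library as a block. The change was larger in cholangiocytes for 13 of 20 enzymes against macrophages, for 4 against lymphocytes and for 3 against endothelial cells, where the backgrounds of genes whose changes differed were 2.57%, 0.108% and 0.601%. Since the list was chosen from the values of cholangiocytes, the counts describe these libraries. The cells of the macrophage gate themselves differed between the groups, with medians of 7421 to 14791.5 UMIs in the vehicle and 2084 to 3050.5 in the ginkgetin libraries. In them 7.32% of all genes were called, and the endothelial gene Ehd3 stood at means of 3.98 and 106 CPM. The part of this in the comparison with macrophages was not tested.

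Hmgcs1 differed in all 3 comparisons, by log2 2.27 ± 0.376 SE from endothelial cells (edgeR adjusted p = 0.0194), 1.88 ± 0.291 from lymphocytes (edgeR adjusted p = 0.0397) and 2.87 ± 0.351 from macrophages (edgeR adjusted p = 0.000704). Msmo1 and Insig1 also differed in all 3. Idi1 differed from lymphocytes and macrophages and did not pass the test against endothelial cells, where its own log2 fold change was 1.87. Insig1 had a log2 fold change of 2.07 in endothelial cells, 1.37 in lymphocytes and 0.32 in macrophages. For Srebf2 these were 1.13, 1.24 and 0.37. The difference of Srebf2 passed the test against macrophages only (edgeR adjusted p = 0.614, 0.871 and 0.026). Scd2, which rose in cholangiocytes, had log2 fold changes of -0.59 in endothelial cells and -0.51 in macrophages, and both differences passed the test (edgeR adjusted p = 0.00157 and 0.000709). In lymphocytes its log2 fold change was 0.88, and that difference did not pass (edgeR adjusted p = 0.537).

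**Figure D4:**
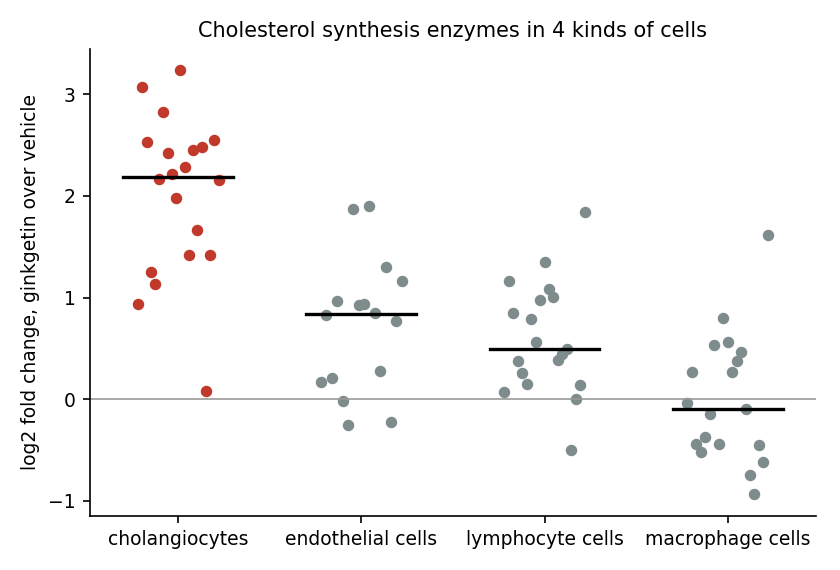
Log2 fold change, ginkgetin over vehicle (y axis), of the cholesterol synthesis enzymes in cholangiocytes and in 3 kinds of cells taken by marker gates (x axis), where each point is a gene that passed the filter in those cells and the line is the median. The medians are 2.19 in cholangiocytes, 0.84 in endothelial cells, 0.49 in lymphocytes and -0.10 in macrophages.

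Genes of the reactive state of cholangiocytes fell in part. Of 22 tested genes of that list, 2 fell (Mmp7 and Lcn2) and none rose, against 0.248% of all genes that fell. Of the 22, 19 had a negative fold change, and the median log2 fold change was -0.63. By DESeq2 4 of the list were called, against 80 of all 8052 genes tested. The count depended on the block more than in the sterol genes. It was 8 under the block for the replicate number and 7 under that for the barcode set, all lower, where the backgrounds of lower genes were 0.931% and 0.857%.

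Mmp7, a secreted matrix metalloproteinase of injured epithelia, stood at 115, 157 and 124 CPM in the vehicle and 15.9, 17.5 and 17.8 CPM in the ginkgetin libraries. The ginkgetin libraries were nearly alike, and the level was 7.54-fold lower (log2 -2.91 ± 0.266 SE, edgeR adjusted p = 0.000658). Other cells held almost none, with means of 0.302 and 0.0869 CPM. It was found in 21.4% to 23.6% of thinned vehicle cholangiocytes and 2.56% to 5.17% of those of the ginkgetin libraries. Lcn2, lipocalin 2, an iron-binding defence protein induced by inflammation, stood at 931, 553 and 1212 CPM against 211, 223 and 241 CPM. It fell 3.94-fold (log2 -1.98 ± 0.308 SE, edgeR adjusted p = 0.0177), and the call was lost without vehicle replicate 1 or ginkgetin replicate 1 or 2, with edgeR adjusted p of 0.0841 to 0.12. Its level in other cells was 14.7 and 1.91 CPM.

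The adhesion molecules and chemokines of the list that were tested were not among the 58 called genes, and 5 of them were called lower under either block. Vcam1, which binds leukocytes, stood at 81.9, 63.6 and 331 CPM in the vehicle and 14.2, 18.6 and 46.6 CPM in the ginkgetin libraries. Replicate 3 was the highest in both groups and the groups did not overlap (log2 -2.54 ± 0.611 SE, edgeR adjusted p = 0.11 without and 4.24e-05 with the replicate number as a block). Icam1, Cd44, Cxcl1 and Cxcl16 likewise did not overlap between the groups and were called with the replicate number as a block, with edgeR adjusted p of 0.016, 0.0242, 0.0112 and 0.0248. With no filter on low counts Vcam1, Cd44, Cxcl1 and Cxcl16 were called without a block too. Ccl2, a chemokine that draws monocytes, stood at 52.3, 5.89 and 312 CPM in the vehicle libraries and was at 0 in all 3 ginkgetin libraries. With a floor of 3 counts over the ginkgetin group that is at least 75.6-fold lower, but 1 library held most of it and the gene did not pass the filter, so it was not tested. Spp1, osteopontin, was at 28109 ± 6657 and 16096 ± 1036 CPM (SD, n = 3) and was not called (edgeR adjusted p = 0.399). Pdgfa, Tgfb2 and Vim were not called either, with log2 fold changes of 0.49, -0.14 and -0.04.

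Further large falls were seen outside the lists. Il1rn, the antagonist of the IL-1 receptor, stood at 74.1, 69.5 and 75.6 CPM in the vehicle and 1.77, 8.77 and 13.7 CPM in the ginkgetin libraries, an 8.41-fold fall (edgeR adjusted p = 0.00313, and 0.0552 after thinning). Gc, the vitamin D-binding protein, stood at 555, 356 and 366 CPM against 53.1, 84.4 and 57.5 CPM (log2 -2.67 ± 0.297 SE, edgeR adjusted p = 0.00177). Wfdc18 stood at 39.0, 55.4 and 95.5 CPM against 1.77, 0 and 8.22 CPM (edgeR adjusted p = 0.0163), and Hp, haptoglobin, fell by log2 3.11 (edgeR adjusted p = 0.0325). In none of these did the groups overlap. Several of them were lower in other cells as well. The mean level of Il1rn there was 89.9 and 7.14 CPM, that of Hp 151 and 24.7 CPM and that of Gc 49.0 and 14.1 CPM, and their part in these results was not tested. Sprr1a, a protein of the cornified envelope, stood at 17.9, 76.6 and 190 CPM in the vehicle libraries and was at 0 in every ginkgetin library, which is at least 57.4-fold lower with a floor of 3 counts over the group (edgeR adjusted p = 0.0381). Vehicle replicate 3 held the highest level, and the bound pools the vehicle libraries. The call of Sprr1a was lost in replicates 1 and 2 alone and without vehicle replicate 2 or any ginkgetin replicate, with edgeR adjusted p of 0.0767 to 0.179. Hp lost its call in replicates 1 and 2 alone, after thinning, without vehicle replicate 1 and without ginkgetin replicate 1 or 3, and Wfdc18 without ginkgetin replicate 1. In limma-voom none of Hp, Wfdc18 and Sprr1a was called, with adjusted p of 0.158, 0.0562 and 0.116.

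Sftpd, surfactant protein D, a collectin of mucosal defence and the gene with the largest ratio to the other cells, stood at 602, 467 and 684 CPM in the vehicle and 212, 196 and 255 CPM in the ginkgetin libraries (log2 -1.39 ± 0.247 SE, edgeR adjusted p = 0.0325). Pigr, the polymeric immunoglobulin receptor, moved the other way, from 225, 321 and 174 CPM to 946, 860 and 618 CPM (log2 1.78 ± 0.316 SE, edgeR adjusted p = 0.0325). Both are defence genes of the bile duct epithelium and neither overlapped between the groups. In the other cells Pigr was at 4.25 and 8.68 CPM. Of 15 tested genes of epithelial defence, Pigr rose and Lcn2 fell (against 0.472% and 0.248% of all genes), and the median log2 fold change was -0.09. Cd14, a receptor for bacterial lipopolysaccharide, was at 161, 117 and 321 CPM against 42.5, 29.6 and 116 CPM and was not among the 58 called genes. It was called lower with the replicate number as a block (edgeR adjusted p = 0.000175), in replicates 1 and 2 alone and with no filter on low counts. In the other cells it stood at 162 and 16.2 CPM, and their part was not tested. The calls of both Pigr and Sftpd were lost without ginkgetin replicate 1 or 2 or any 1 vehicle replicate, with edgeR adjusted p of 0.0932 to 0.208 and 0.0817 to 0.178.

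Heat shock genes fell in part. Of 26 tested immediate-early and heat shock genes, 3 fell, against 0.248% of all genes. Hspa1a, an inducible HSP70, stood at 643, 258 and 121 CPM in the vehicle and 37.2, 26.3 and 17.8 CPM in the ginkgetin libraries (edgeR adjusted p = 0.0163), Hspa1b fell 4.19-fold and the cochaperone Dnaja1 fell 2.32-fold. In the other cells Hspa1a stood at 658 and 79.4 CPM, Hspa1b at 346 and 81.4 CPM and Dnaja1 at 382 and 256 CPM. Their levels were thus lower in the other cells of the ginkgetin libraries too, and the part of those cells was not tested. Under either block 5 fell (against 0.931% and 0.857% of all genes), with Hspa8 and Hspb1 added. Leaving out any 1 ginkgetin replicate ended the calls of all 3, and for Hspa1a the edgeR adjusted p was then 0.0811 to 0.109. Dnaja1 also lost its call without any 1 vehicle replicate, and Hspa1b without vehicle replicate 1 or 3. Only Hspa1a kept its call after thinning and in limma-voom.

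**Figure D5:**
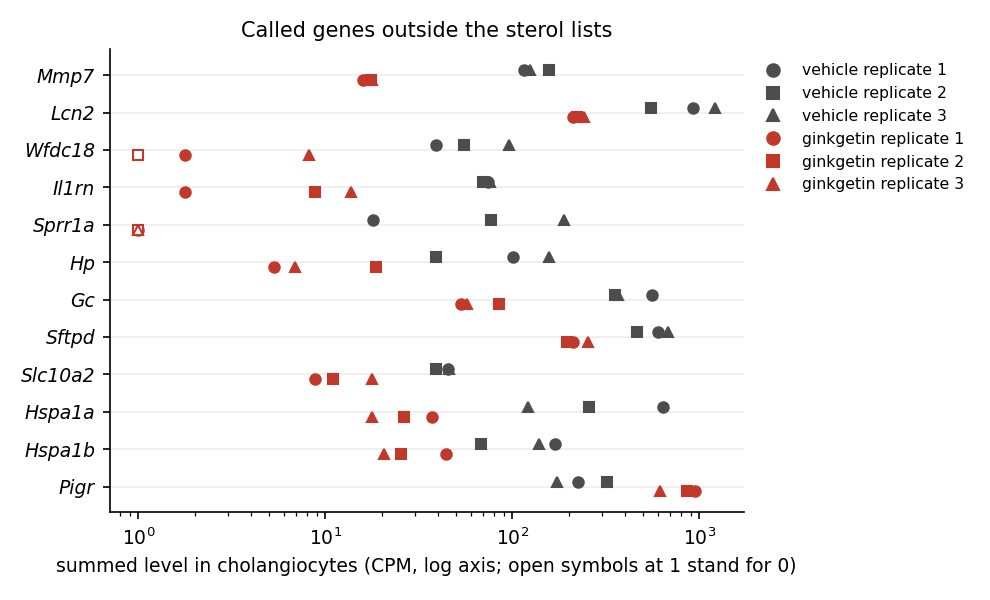
Level of 12 called genes outside the sterol lists in the cholangiocytes of each library, in CPM on a log axis, with open symbols at 1 for libraries at 0. The 3 ginkgetin libraries (red) lie below the 3 vehicle libraries (grey) in each gene except Pigr, where they lie above.

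The promoter of Mmp7 is shown because it had the lowest adjusted p of the genes that fell. Its entry in the promoter table was taken for holding the AP-1 element, so the match shown follows from that choice. The AP-1 element TGANTCA, which is the same on both strands apart from its middle base, occurs 63 bases before its start and is marked in capitals (chr9:7691840-7692089, plus strand). These letters were found in 4 of the 17 genes that fell and have an entry, Il1rn, Mmp7, Slc10a2 and Sprr1a (23.5%), and in 7.82% of all genes. They were in 2 of the 28 genes that rose (7.14%).
Mmp7: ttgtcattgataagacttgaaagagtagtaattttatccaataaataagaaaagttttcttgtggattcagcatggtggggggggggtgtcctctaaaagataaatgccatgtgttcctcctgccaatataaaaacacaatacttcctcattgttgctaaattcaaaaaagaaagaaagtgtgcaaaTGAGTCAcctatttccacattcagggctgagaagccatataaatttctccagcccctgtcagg

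Of 8 tested genes of bile acid handling 1 fell (against 0.248% of all genes) and 7 were not called. Slc10a2, the apical bile acid transporter ASBT, was at 45.2, 38.9 and 45.6 CPM in the vehicle and 8.85, 11 and 17.8 CPM in the ginkgetin libraries (log2 -1.75 ± 0.313 SE, edgeR adjusted p = 0.0325). The groups did not overlap, and it was almost absent from the other cells, at 0.211 and 0.0577 CPM. The call was lost when any 1 vehicle replicate or ginkgetin replicate 1 or 2 was left out, with edgeR adjusted p of 0.0527 to 0.168, and after thinning. Slc10a2 was also not called in limma-voom (adjusted p = 0.0604) or with a stricter gate (edgeR adjusted p = 0.0584). Abcb1a, a drug and bile salt exporter, was at 33.9 ± 5.08 and 76.5 ± 12.9 CPM (SD, n = 3) and was not among the 58 called genes, but was called higher with the replicate number as a block (edgeR adjusted p = 0.0146) and with no filter on low counts. Of 16 tested genes of secretion and water transport none was among the 58, 6 had an unadjusted p under 0.05 (against 13.2% of all genes tested), and DESeq2 called 0. Cftr was at 33.7 ± 16.0 and 18.7 ± 8.74 CPM, Slc4a2 at 27.3 ± 8.33 and 54.9 ± 21.9 CPM and the secretin receptor Sctr at 22.4 ± 2.98 and 20.3 ± 0.725 CPM. The water channel Aqp1, at 78.9 ± 26.2 and 159 ± 35.1 CPM, was called with the replicate number as a block (edgeR adjusted p = 0.0471), and in the other cells it stood at 219 and 1495 CPM.

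Genes of the identity and structure of the epithelium were not among the 58 called genes. Of 28 tested genes of biliary identity 6 had an unadjusted p under 0.05 (against 13.2% of all genes tested). DESeq2 called 1 of the 28 (against 80 of 8052 genes tested), and their median log2 fold change was 0.10. Bicc1, the gene of an RNA-binding protein, was at 517 ± 62.3 and 654 ± 157 CPM and Pkhd1 at 193 ± 35.1 and 280 ± 148 CPM (SD, n = 3). Clu, clusterin, was at 20155 ± 4302 and 15656 ± 820 CPM. Cldn4, a tight junction claudin, stood at 57.7, 134 and 267 CPM against 30.1, 34.0 and 57.5 CPM and was called lower under either block (edgeR adjusted p = 0.000703 with the replicate number). Under either block the claudin Cldn2 was also called lower and Cldn10 higher. Of 18 tested genes of the primary cilium none was among the 58 (2 at an unadjusted p under 0.05, 0 by DESeq2), nor of 27 of tight junctions and adhesion (5 and 1), nor of 10 of the Notch pathway (2 and 0), nor of 17 targets of Hippo and YAP (1 and 0). Notch2 was called higher under either block, from 75.6 ± 25.3 to 166 ± 92.8 CPM. A call that was missed does not show that a gene was alike in both groups.

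Antigen presentation, interferon and respiratory genes were not among the 58. Of 20 tested MHC class I genes 1 had an unadjusted p under 0.05, of 23 interferon-stimulated genes 3 and of 29 respiratory chain genes 0. The share of all genes tested was 13.2%. DESeq2 called 0 in each of these lists. The median log2 fold changes of the 3 lists were -0.12, -0.02 and 0.08. Of 14 tested genes of NF-kB feedback none was among the 58, DESeq2 called 0, 3 had an unadjusted p under 0.05, and the median was -0.43. Relb among them, a subunit of NF-kB, stood at 44.5, 47.1 and 64.2 CPM against 17.7, 18.6 and 31.5 CPM and was called lower under either block (edgeR adjusted p = 0.0222 with the replicate number). Of 7 tested MHC class II genes none was among the 58, 1 had an unadjusted p under 0.05 and DESeq2 called 1 (against 80 of 8052 genes tested). Ctss among them was called lower under either block, and it stood at 2032 and 326 CPM in the other cells, whose part was not tested.

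Several called genes were typical of endothelial cells. Ehd3 was at 7.02, 3.54 and 7.13 CPM in the vehicle and 30.1, 104 and 31.5 CPM in the ginkgetin cholangiocytes, and at 119 and 1362 CPM in the other cells. Gpr182 and Egfl7 likewise rose, and in the other cells they stood at 86.1 and 481 CPM and at 100 and 412 CPM. Each was more abundant in the other cells than in cholangiocytes, and its mean was higher with ginkgetin in both. The part of RNA from endothelial cells was not tested. Among further genes that rose, Vegfa, an angiogenic growth factor, went from 91.9 ± 7.31 to 209 ± 56.4 CPM (SD, n = 3) and Ces1c, a carboxylesterase, rose 5.52-fold. Vegfa lost its call in every fit that left out 1 library (edgeR adjusted p = 0.111 to 0.336), and Ces1c in all of these but that without ginkgetin replicate 2, and its log2 fold change was 1.44 with no cell filter against 2.46. Among further genes that fell were Socs2, an inhibitor of cytokine signalling, and Birc2, an inhibitor of apoptosis, by log2 1.53 and 1.51. Birc2 lost its call in every fit without 1 library, and Socs2 without vehicle replicate 2 or ginkgetin replicate 1 or 2. Ehd3, Gpr182 and Egfl7 kept theirs only without ginkgetin replicate 3. Vegfa, Socs2, Birc2, Gpr182, Egfl7, the transporters and reactive genes named without a call, and the genes called with a block that are not among the 58 were named after their values were seen.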

How the data were processed

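Raw counts of UMIs per gene and cell barcode were deposited by the authors, 1 table per library, with no normalization. Per the labels the tissue was liver and the platform 10X Genomics. GRCm38 and mm10 are builds named in the submitters' processing notes, and the counting tool is not given in the sources used here. Deposited barcodes had at least 501 genes. The study's methods give a range of 250 to 5000 UMIs per cell. Here the limit of 5000 was applied to genes instead, with under 5% mitochondrial UMIs, and the range of UMIs, which left 2 to 25 cholangiocytes per library, was an alternative. There were 33168 barcodes before filters, and no doublet caller was run. Total UMIs per library ranged from 13128697 to 61796882, and those summed over cholangiocytes from 565271 to 1282099.

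Counts were summed per library over cholangiocytes, because cells are not replicates, and compared in edgeR 4.0.16 (R 4.3.3, TMM, filterByExpr, group as the only term) over the genes seen in both sets of tables. DESeq2 1.42.0, limma 3.58.1, total UMIs, DESeq2 size factors, other filters and gates, blocks and leaving out libraries were alternatives. CPM were computed with python 3.11.15, numpy 2.4.6, scipy 1.17.1 and pandas 2.3.3, and plots with matplotlib 3.10.9. Wilson intervals and floors of 3 counts cover counting error only. Other cells are all kept cells outside the gate, and the cells set beside cholangiocytes held at least 3 UMIs of endothelial (Kdr, Stab2, Clec4g), macrophage (C1qa, C1qb, Clec4f) or lymphocyte (Cd3d, Cd3e, Trac, Cd79a, Ms4a1) markers and fewer of the others.

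Replicate numbers are shared by the groups in the labels. Deviations from the group means of same-numbered libraries correlated at 0.223, 0.167 and 0.453. Those of replicate 3 and those of replicates 1 and 2 of the other group correlated at -0.312 to -0.255. The check thus sets replicate 3 apart and does not show that same-numbered libraries were paired. The replicate block is given as an alternative beside many of the results that it changes. Numbers 1 and 2 were not told apart by this check, since vehicle replicate 2 and ginkgetin replicate 1 correlated at 0.178.

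The members and gene lists were chosen with earlier results of these data known, and the 3 sterol lists, the promoter motifs and the other kinds of cells after the values given here were seen. Genes named are the gate genes, called members and the 2 most abundant members of each list, the 10 largest rises and falls without overlap at 50 CPM or more, and the 15 genes with the largest ratio to other cells. Exceptions are said to be such. A few genes of the lists are counted but not reported here by name.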

Additional observations from a re-analysis of the deposited data

How the results depend on the processing

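The share of cholangiocytes per library differed by -0.436 points, and its direction turned with the UMI filter of the study's methods in place of that on genes (0.0801 points) and without cells that held other markers (0.0262 points). Without 1 library each it ran from -0.892 to 0.0711 points, and no setting reached an exact permutation p under 0.05, which the design does not allow. The number of genes called in cholangiocytes, 58, was 178 with the replicate block and 164 with the barcode-set block, 162 with no filter on low counts, 36 with a stricter gate, 27 in limma-voom and 21 after thinning each cell to at most 3000 UMIs, where 4313 genes were tested. Without 1 library each it ran from 13 to 42. It lay within 1.5 times of 58 in DESeq2 (80), with DESeq2 size factors (52), with total UMIs only (40), with Epcam required (70), with no cell filter (68), in replicates 1 and 2 alone (83) and without cells that held mesothelial markers (69), an alternative chosen after seeing the data. The replicate block kept all 58 calls, and no called gene turned its direction in any alternative that was run. The fits with the UMI range and without cells that held other markers were not run, since fewer than 10 cells were left in most libraries. Low counts limit what can be seen, since a floor of 3 counts is 2.34 to 5.31 CPM in a library.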
